A study of Mus musculus with 7 samples.

Results

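Interferon-inducible GTPases were measured in the liver of 7 old female mice. A list of 7 genes was chosen from the immunity-related GTPase (IRG) and guanylate-binding protein (GBP) families: Igtp, Irgm1, Irgm2, Iigp1, Tgtp1, Gbp2 and Gbp3. A gene was kept where the platform annotation gives it a probe set with exactly 1 symbol. That left 6 genes on 7 probe sets, of 8251 genes on 10833 such probe sets. Tgtp1 was dropped because its only probe set is also annotated to Tgtp2. The rule uses gene names and annotation, but the list was drawn up with earlier results of these data known.

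The mice were phenotypically normal, of genotype +/+ or +/df, had free access to standard pelleted food and were killed at 24 to 26 months. One label field names the Ames dwarf genotype (df/df) instead, against the titles, the source names and the series title, which were followed here. All 7 arrays form 1 group, so levels and the spread between mice are given and no groups are compared. Mice are called by the numbers in their titles, which are 1, 2, 3, 4, 6, 7 and 8. The labels describe each sample as a mouse but do not state that each RNA came from a separate animal, so the p-values measure the spread between these samples, part of which may be technical.

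IRG and GBP proteins are large GTPases that cells make in quantity after exposure to interferons, above all interferon gamma. They gather on vacuoles that hold intracellular bacteria or protozoa, damage the vacuole membrane and help to clear the invader. Regulatory IRG proteins of the Irgm type, Igtp (also called Irgm3), Irgm1 and Irgm2, sit on the cell's own membranes and hold effector proteins such as Iigp1 and Tgtp1 in an inactive state. GBP proteins such as Gbp2 and Gbp3 join the effectors on the vacuole. Promoters of interferon-induced genes often hold GAS elements, named for gamma-activated sites, or ISRE elements, which bind interferon regulatory factors.

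The promoters are shown first because the genes are usually discussed as 1 interferon response and share short sequence elements. The lines give 120 bases just before the annotated start of each gene, 5′ to 3′ on the gene's own strand, from RefSeq on build GRCm38.p6. Capitals mark the GAS pattern TTCNNNGAA, which reads the same on both strands, and the ISRE core GAAANNGAAA on either strand, also where matches overlap. In the order of the lines they lie at chr11:58199436-58199555 (+), chr11:58214857-58214976 (+), chr11:48992247-48992366 (-), chr11:48871421-48871540 (-), chr3:142620543-142620662 (+) and chr3:142559924-142560043 (+).
Igtp: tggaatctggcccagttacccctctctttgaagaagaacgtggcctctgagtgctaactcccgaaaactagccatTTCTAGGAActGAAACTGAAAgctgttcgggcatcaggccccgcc
Irgm2: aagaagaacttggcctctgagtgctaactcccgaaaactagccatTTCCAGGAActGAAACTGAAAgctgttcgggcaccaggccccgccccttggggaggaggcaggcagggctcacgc
Tgtp1: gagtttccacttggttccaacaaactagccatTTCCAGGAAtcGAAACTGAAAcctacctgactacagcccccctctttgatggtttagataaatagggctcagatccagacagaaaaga
Irgm1: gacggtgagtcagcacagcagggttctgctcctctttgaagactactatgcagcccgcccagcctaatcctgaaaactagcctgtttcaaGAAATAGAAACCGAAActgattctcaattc
Gbp2: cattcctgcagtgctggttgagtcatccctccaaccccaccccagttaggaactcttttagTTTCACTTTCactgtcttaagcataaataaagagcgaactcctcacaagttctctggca
Gbp3: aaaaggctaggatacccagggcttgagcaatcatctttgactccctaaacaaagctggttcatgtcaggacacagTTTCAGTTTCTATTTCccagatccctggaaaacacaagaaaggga

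All 6 of these genes have at least 1 ISRE core in their window, against 3.44% of the 32851 promoter windows of 300 bases in the table. The windows of Igtp, Irgm2 and Tgtp1 also hold a GAS pattern just before the ISRE core, and 0.454% of all windows hold both patterns. In Igtp the GAS match begins 45 bases and the ISRE match 34 bases before the start. In Irgm2, which follows Igtp in the gene order of chromosome 11, they begin 75 and 64 bases before it. The 300-base windows of this pair, which extend 50 bases past the start, share an identical run of 61 bases. That run holds neither the GAS nor the ISRE match. Over 270 aligned bases the 2 windows were 68.15% identical. Irgm1 and Gbp3 each have 2 overlapping ISRE cores and no GAS match, and those of Gbp3 are on the strand opposite the gene. Gbp2 has 1 ISRE core, also on the opposite strand, 59 bases before the start. A second annotated start of Gbp3 holds neither pattern. These matches describe letters in a window and do not show that a factor binds there. Iigp1 had no entry in the promoter table.

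Iigp1 was by far the brightest of the genes and Gbp2 the dimmest. The mean scaled signal of Iigp1, an effector IRG protein (NCBI gene 60440), was 7839 ± 2491 (SD, n = 7), at the 98.3rd percentile of named genes. The regulatory genes Igtp (16145) and Irgm2 (54396) had 1555 ± 990 and 1488 ± 744, and Irgm1 (15944) had 568 ± 201. Gbp3 (55932) had 790 ± 410 and Gbp2 (14469) 247 ± 113, at the 77.9th and 50.4th percentiles. Within each array the order Iigp1, Irgm2, Gbp3, Irgm1, Gbp2 held on 7 of 7 arrays, while Igtp was above Irgm2 on 5 of 7, so these neighbours do not differ beyond their spread. Signals of different probe sets depend on the probes as well as on the RNA, so this is an order of signals on the linear array scale and not of transcript amounts.

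**Figure D1:**
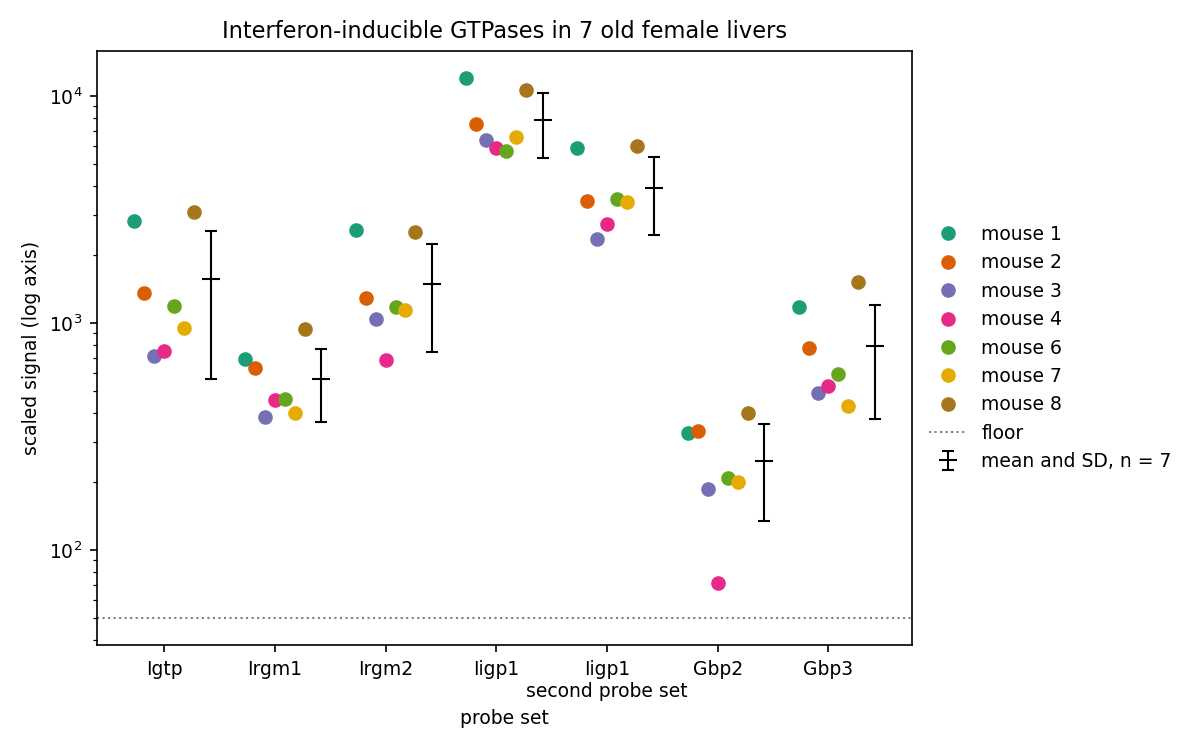
Scaled signal (log axis) of the 7 probe sets of interferon-inducible GTPases in each of the 7 mice (points), with the mean and SD beside them and the floor of 50.04 as a dotted line. Mice 1 and 8 lie above the other 5 on each probe set except that of Gbp2, where mouse 2 lies just above mouse 1.

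The regulatory gene Igtp had signals of 2826 on mouse 1, 1361 on mouse 2, 719 on mouse 3, 749 on mouse 4, 1189 on mouse 6, 946 on mouse 7 and 3095 on mouse 8. Mice 8 and 1 stood apart, and the next highest, mouse 2, was below both of them by more than its distance to any of the other 4. From lowest to highest the signal ranged 4.30-fold. Its neighbour Irgm2 had 2561 on mouse 1, 1290 on mouse 2, 1042 on mouse 3, 690 on mouse 4, 1173 on mouse 6, 1136 on mouse 7 and 2524 on mouse 8. The same 2 mice were high, mouse 4 was lowest, and the range was 3.71-fold.

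Irgm1, which is needed to keep the other IRG proteins in check, varied less than Igtp and Irgm2. It had 698 on mouse 1, 634 on mouse 2, 386 on mouse 3, 456 on mouse 4, 463 on mouse 6, 403 on mouse 7 and 939 on mouse 8, a 2.43-fold range. Mouse 8 was highest, and mouse 1 exceeded mouse 2 by only 1.10-fold, so on this probe set mouse 1 does not stand apart.

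Iigp1, the effector that damages vacuole membranes, was bright in every mouse. Its main probe set had 12028 on mouse 1, 7515 on mouse 2, 6428 on mouse 3, 5908 on mouse 4, 5719 on mouse 6, 6627 on mouse 7 and 10647 on mouse 8, a 2.10-fold range. Its second probe set, with the suffix _f_at of designs that can read related genes, had 5920, 3442, 2352, 2723, 3527, 3423 and 6005 on the same mice in that order, a 2.55-fold range. Both probe sets put mice 1 and 8 above the other 5, and their log2 signals had a Pearson r of 0.886 over the 7 mice.

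Of the GBP genes, Gbp3 had mice 8 and 1 highest and Gbp2 had mice 8 and 2 highest. Gbp3 had 1180 on mouse 1, 777 on mouse 2, 493 on mouse 3, 530 on mouse 4, 593 on mouse 6, 432 on mouse 7 and 1522 on mouse 8, a 3.52-fold range. Gbp2, which carries a lipid anchor at its end and helps to open bacterial vacuoles, had 329 on mouse 1, 334 on mouse 2, 186 on mouse 3, 71.5 on mouse 4, 208 on mouse 6, 198 on mouse 7 and 402 on mouse 8. Its range of 5.62-fold rested largely on mouse 4, since the next lowest value was 186. Mice 1 and 2 were level on Gbp2. The tests below used genes with a mean signal of at least 200.1, and all 6 genes passed, but Gbp2 had a mean of 199.6 over the other 5 mice and so passed only through mice 1 and 8.

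The spread of all 6 genes between mice was wide for their level, but none passed the test after adjustment. The SD of log2 signals was 0.86 for Igtp, 0.83 for Gbp2, 0.69 for Irgm2, 0.68 for Gbp3, 0.47 for Irgm1 and 0.42 for Iigp1, with a median of 0.69. The median over all 4481 tested genes was 0.18, and 93.8% of them had a smaller SD than Iigp1, the steadiest of the 6. Relative to the SD expected at its level, that of Igtp was 5.31 times as large, that of Irgm2 4.27, that of Gbp3 4.01, that of Iigp1 3.12, that of Gbp2 2.97 and that of Irgm1 2.59. Igtp ranked 7th of the tested genes by this ratio, Irgm2 23rd and Gbp3 30th.

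In limma's fit with a prior variance that follows the level, 0 of the 6 genes had more spread than genes of their level at an adjusted p under 0.05, against 0% of all tested genes. At an unadjusted p under 0.05 the count was 6 of 6, against 6.72% of all tested genes. Gbp2 passed the filter only through mice 1 and 8, so its place in that count is no support. Adjusted p-values from limma were 0.265 for Igtp, 0.343 for Irgm2, 0.354 for Gbp3, 0.434 for Iigp1, 0.472 for Gbp2 and 0.532 for Irgm1. The unadjusted count was also 6 without the robust step and 5 without the trend in the prior, with 0 after adjustment in both. On simulated data this test recovered none or few of the genes given a raised SD, so a count of 0 after adjustment was likely with 7 arrays and does not show that the spread was ordinary. The genes were chosen with these results known and vary together, so the 6 are not separate observations. Without mouse 4 the log2 SD of Gbp2 was 0.47, against 0.83 with it.

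**Figure D2:**
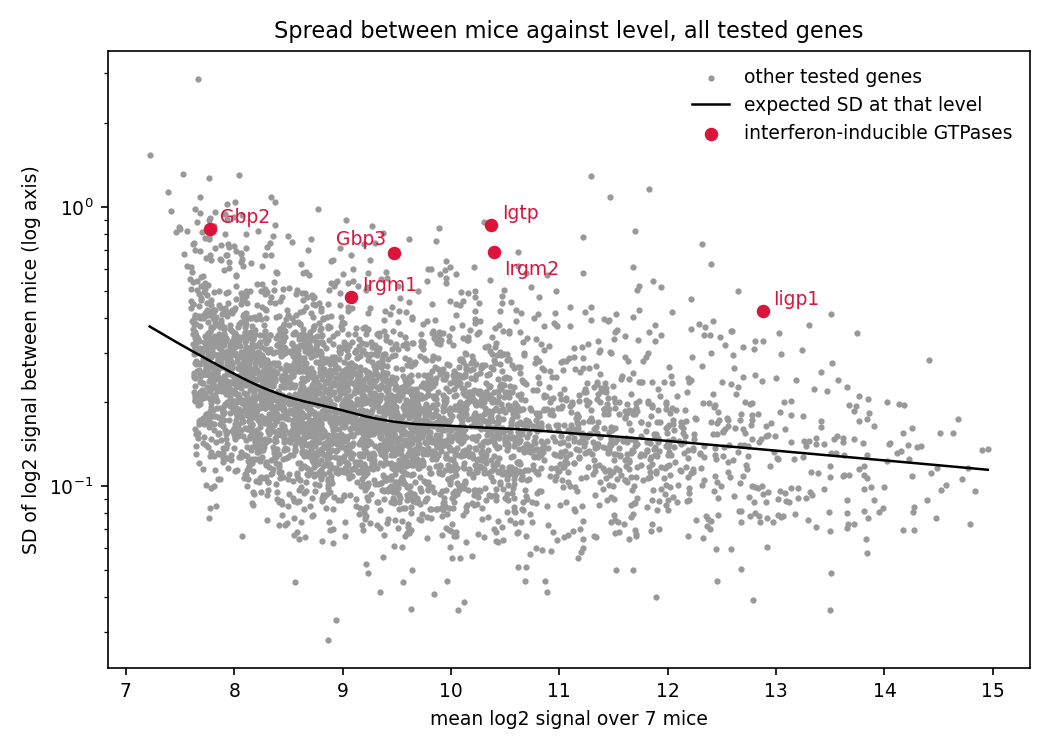
SD of log2 signal between the 7 mice (log axis) against mean log2 signal for the 4481 tested genes (grey), with the SD expected at each level (line) and the 6 interferon-inducible GTPases in red. All 6 lie above the line, Igtp by 5.31 times and Irgm1, the least, by 2.59 times.

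The genes followed nearly 1 order of mice. Of the 5 genes other than Igtp, 4 had the same 2 highest mice as Igtp, mice 1 and 8, against 4.24% of all other tested genes. Gbp2 was the exception. Mouse 8 was highest on 4 genes and mouse 1 on 2, mouse 2 ranked 3 on 5 of the 6, and mice 3 and 4 were each lowest on 2. Averaged over the 6 genes, log2 signals minus each gene's mean were 0.90 on mouse 8, 0.73 on mouse 1, 0.16 on mouse 2, -0.22 on mouse 6, -0.37 on mouse 7, -0.46 on mouse 3 and -0.74 on mouse 4. This average includes Gbp2, which passed the filter only through mice 1 and 8. Every gene was above its own mean on mice 1 and 8, by 0.37 to 1.22, and below it on mice 3, 4, 6 and 7.

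Over the 15 pairs of genes, the Pearson r of log2 signals across the 7 mice ranged from 0.69 for Irgm1 with Gbp2 to 0.98 for Irgm1 with Gbp3, with a median of 0.88. Spearman's rho ranged from 0.61 to 0.96, and the median r over all pairs of tested genes was 0.00. These are descriptions with no p, because the genes were chosen with results known, share their arrays, and mice 1 and 8 stand apart. The pairs with Gbp2 have a further limit, since Gbp2 passed the filter only through mice 1 and 8. Over the other 5 mice alone the median r was 0.55 and all 15 values were above 0, from 0.32 for Irgm1 with Irgm2 to 0.98 for Irgm2 with Gbp2. Over all pairs of tested genes on these 5 mice, 5.01e+06 of 1.00e+07 values were above 0, with a median of -0.0006. With the means of the sets of arrays defined by the spike-in controls removed the median was 0.89.

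Among other GTPases of these families, 5 of 25 listed genes had a probe set of their own and 2 were bright enough to test. Gbp7, which lies beside Gbp3 in the GBP cluster of chromosome 3, had 1792 on mouse 1, 1149 on mouse 2, 714 on mouse 3, 866 on mouse 4, 714 on mouse 6, 735 on mouse 7 and 1408 on mouse 8. Ifi47, an IRG gene near Tgtp1 on chromosome 11, had 869, 542, 488, 416, 406, 462 and 778 on the same mice in that order. Both were highest on mice 1 and 8, against 4.24% of other tested genes. Both had an unadjusted p under 0.05, against 6.72% of all tested genes, and neither passed over all genes (limma, adjusted p = 0.397 and 0.606). The promoter window of Gbp7 holds 2 GAS matches and 1 ISRE core, and that of Ifi47 holds neither. Gbp2b, between Gbp3 and Gbp2, was below the floor in every mouse except mouse 8, where it had 206. Mx2, an antiviral GTPase of the dynamin family, had 163 ± 23.7 and was highest on mouse 7. Among genes beside the clusters, Kyat3, next to Gbp2, had an r of 0.43 with the mean profile of the 6 GTPases, and Trim41, close to Irgm1, had -0.16.

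The ligand was at background and both chains of its receptor were dim. Ifng, interferon gamma itself, had 4.87 ± 3.02 and was below the floor of 50.04 on all 7 arrays, highest on mouse 4 at 11.4. Its receptor chains Ifngr1 and Ifngr2 had 206 ± 42.1 and 168 ± 68.2 and were not highest on mice 1 or 8. Ifngr1 ranged 1.63-fold, and Ifngr2, which was too dim to test, 5.74-fold, from 47.4 on mouse 7 to 272 on mouse 3. Of 20 measured ligand and receptor genes, 7 were tested and 0 were below 0.05 before adjustment, against 6.72% of all tested genes. A signal this low cannot be told from background, so the level of Ifng RNA could not be determined.

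Among signal transducers, 3 of 12 tested genes had mice 1 and 8 as their 2 highest, against 4.24% of other tested genes. An r of at least 0.8 with the mean profile of the 6 GTPases was found for 2, against 1.54% of tested genes outside the 6. In the test of spread 0 had an unadjusted p under 0.05, against 6.72% of all tested genes. Irf1, a factor that interferon gamma induces and that binds ISRE elements, had 1206 on mouse 1, 852 on mouse 2, 621 on mouse 3, 791 on mouse 4, 749 on mouse 6, 629 on mouse 7 and 860 on mouse 8. Mouse 1 stood apart and mouse 8 was level with mouse 2. Irf9, the DNA-binding part of the type I interferon complex, had 920 and 803 on mice 1 and 8 and 580 to 652 on the other 5. Ptpn1, a phosphatase that acts on Janus kinases, had 485 and 514 on mice 1 and 8 and 267 to 359 on the others. Socs1, the feedback inhibitor of this pathway, was too dim to test but was highest on mouse 8 at 318, against 53.5 to 167 on the rest.

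Among the lists outside these GTPase families, class I antigen presentation, which interferon gamma also induces, had the highest median r with the GTPase profile. That median was 0.80, close to the 0.77 of MHC class II. Of 14 tested genes, 8 had mice 1 and 8 as their 2 highest, against 4.24% of other tested genes, and 7 had an r of at least 0.8 with the GTPase profile, against 1.54% of tested genes outside the 6. The peptide transporter genes Tap1 and Tap2 had r = 0.94 and 0.88, and the immunoproteasome subunits Psmb8, Psmb9 and Psmb10 had 0.90, 0.88 and 0.86. Psmb9 had 1729 on mouse 1, 776 on mouse 2, 692 on mouse 3, 682 on mouse 4, 830 on mouse 6, 610 on mouse 7 and 1245 on mouse 8. Mouse 1 was highest on 7 of the 8 genes that shared the top pair, all but Tap2, whereas mouse 8 was highest on 4 of the 6 GTPases. The brightest probe set of the class I chain H2-K1 shared that pair but with a log2 SD of only 0.11. Its other probe sets differed. That with a mean of 587 had a log2 SD of 0.69 and was highest on mouse 1. That with a mean of 2647 had a log2 SD of 0.14 and was highest on mouse 6. B2m, the partner chain of H2-K1, had 14775 ± 1754, an r of -0.20 and its lowest signal on mouse 1.

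MHC class II genes varied as widely but in a partly different order. The list has 7 tested genes, of which 6 were below 0.05 before adjustment in limma, against 6.72% of all tested genes, and 0 after it. Mice 1 and 8 were the 2 highest on 1 gene, against 4.24% of other tested genes. An r of at least 0.8 with the GTPase profile was found for 3, against 1.54% of tested genes outside the 6. Mouse 4 was lowest on all 7. Their r with the GTPase profile had a median of 0.77, and all 7 lay between 0.62 and 0.88. The highest were those of Ctss and Cd74, at 0.88 and 0.85, which are a protease and the invariant chain and not MHC chains. H2-Aa followed with 0.82. Ctss, with a log2 SD of 0.19, was the gene not below 0.05. H2-Ab1 had 570 on mouse 1, 785 on mouse 2, 382 on mouse 3, 158 on mouse 4, 601 on mouse 6, 603 on mouse 7 and 1113 on mouse 8. Thus mouse 4 was low here as it was on Irgm2 and Gbp2, and mouse 8 was high, but mouse 1 was below mouse 2.

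**Figure D3:**
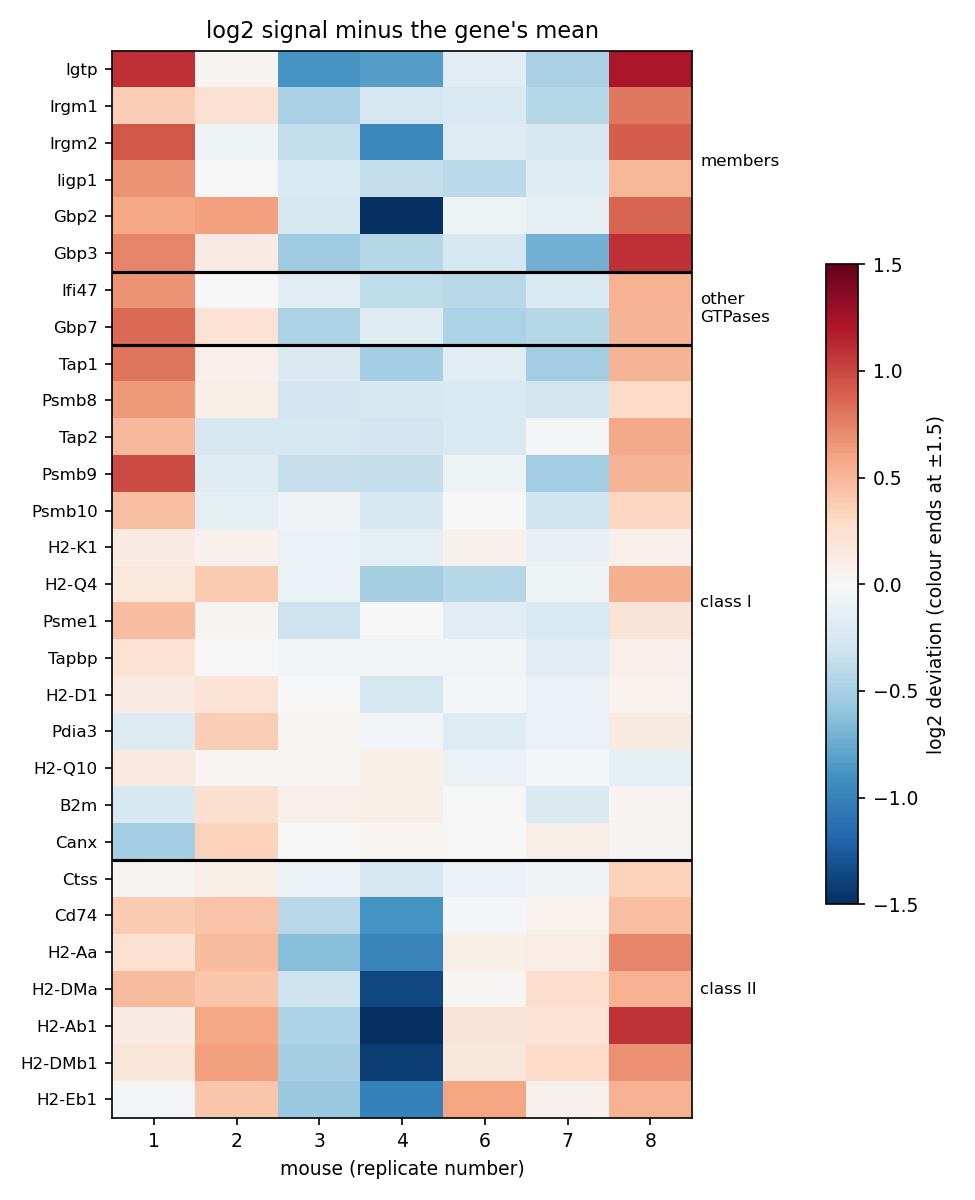
Log2 signal minus the gene's own mean (colour, ending at ±1.5) in each mouse for the 6 GTPases and for the tested genes of the lists of other GTPases, class I presentation and MHC class II, ordered within a list by likeness to the GTPases. Mice 1 and 8 are red on all 6 GTPases, while the class II genes are bluest on mouse 4.

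Type I interferon targets were less alike by their median r with the GTPase profile, which was 0.56. Of 12 tested genes, 3 had mice 1 and 8 as their 2 highest, against 4.24% of other tested genes. An r of at least 0.8 was also found for 3, Samhd1, Adar and Ifit1, against 1.54% of tested genes outside the 6. Ifit1, which binds viral RNA, had 409 and 302 on mice 1 and 8 and 130 to 210 on the other 5. Its mean over those 5 was 172, under the filter, so like Gbp2 it passed only through mice 1 and 8 and its place in both counts is no support. The bright membrane gene Ifitm3 had 10296 ± 667, and Ly6e 9833 ± 996, highest on mouse 8. Of 4 tested chemokine and effector genes, Cxcl9, a chemokine made under interferon gamma, had 848 on mouse 8, 403 on mouse 1 and 159 to 334 on the others, with a log2 SD of 0.82 (limma, adjusted p = 0.355). The other 3, Gch1, Wars and Upp1, had r between -0.30 and 0.03.

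Genes of the autophagy conjugation machinery, on which the loading of GTPases onto vacuoles depends, were steady. All 13 measured genes of that list were tested. Before adjustment 0 were below 0.05 in limma, against 6.72% of all tested genes. Mice 1 and 8 were the 2 highest on 0 of them, against 4.24% of other tested genes. Their median log2 SD was 0.13 and their median r with the profile was -0.17. Gabarap had 5509 ± 371 and Sqstm1, a cargo receptor, 3343 ± 319.

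**Figure D4:**
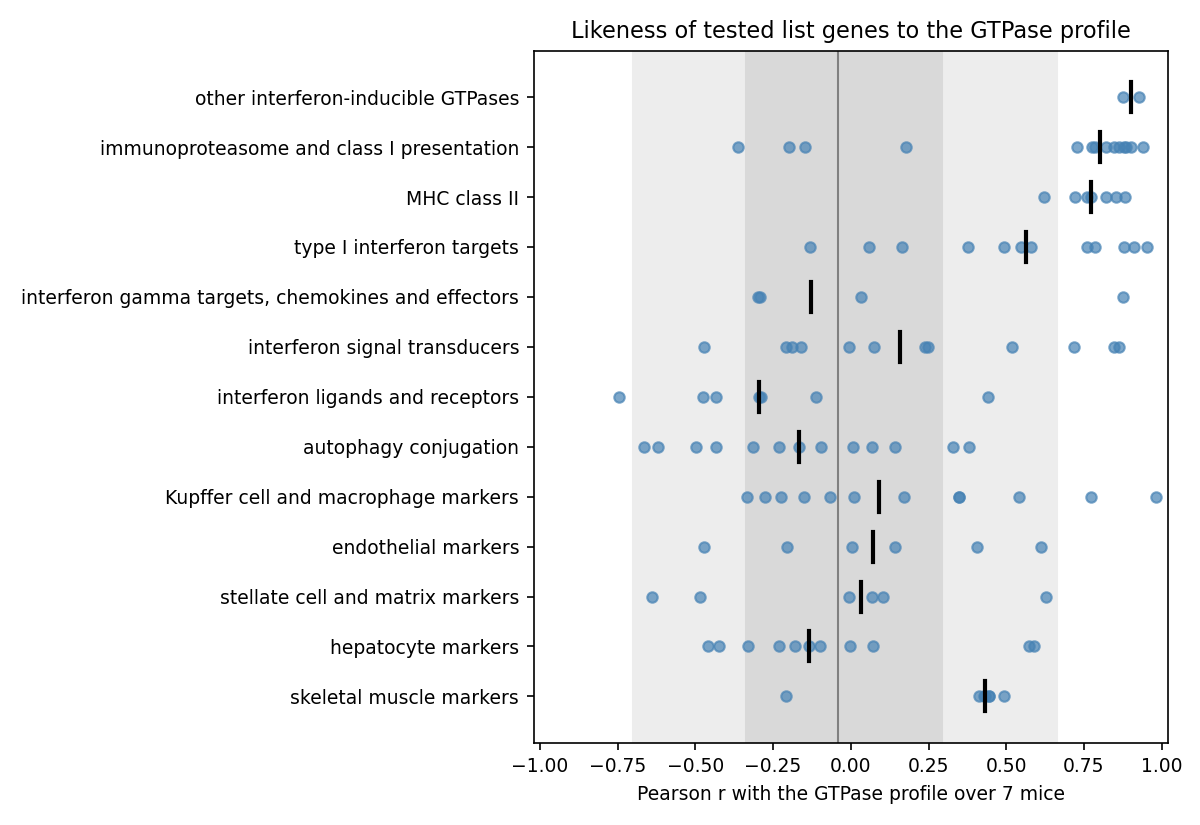
Pearson r over the 7 mice between each tested list gene (points) and the mean profile of the 6 GTPases, with list medians as black bars. The shaded bands hold the middle 50% (dark) and 90% (light) of tested genes outside the 6, whose median is the grey line at -0.04. Other GTPases, class I and class II genes lie to the right, with medians of 0.90, 0.80 and 0.77.

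By the rule of highest Pearson r with the mean profile of the 6 GTPases, the most similar of the other tested genes were Rmdn3, Mpeg1, Nampt, Samhd1, Pgam1, Tap1, Apof, Ifi47, Ywhah and Adar, with r from 0.995 down to 0.911 over 7 mice. Without the 2 mice farthest from the median of the profile, r was 0.642 for Ifi47, 0.755 for Apof and 0.846 to 0.981 for the other 8. The genes differed in how far they moved. Mpeg1, a pore-forming protein of macrophages, had 1442 and 1601 on mice 1 and 8 and 861 to 1078 on the other 5, with a log2 SD of 0.34. Samhd1, which limits retroviral copying by removing nucleotides, had 296 and 287 against 162 to 262. Rmdn3, a protein of mitochondrial contact sites, ran only from 565 on mouse 4 to 757 on mouse 8, with a log2 SD of 0.16. Pgam1, a glycolytic enzyme, had a log2 SD of 0.18. The least alike were Agap1, Tmem230, Itgax, Spns1 and Cyhr1, with r from -0.957 to -0.920. Ranking 4475 genes over 7 mice gives such extremes a wide margin of error, and other probe sets did not always follow. The second of Adar had an r of 0.27 with the first, that of Samhd1 0.33 and that of Tap1 -0.84, at means of 48.5, 67.8 and 103 near the floor. Brighter ones also differed: that of Agap1, with a mean of 359, had 0.42. Those of Cyhr1, with means of 269 and 281, had 0.58 and -0.21.

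Technical measures and markers of other cells were set beside the pattern. In bulk RNA, fewer cells of a type and less RNA per cell cannot be told apart. Of 12 listed hepatocyte markers, 11 were measured. All 11 were tested and bore out the liver label, with a median signal of 22825. The spike-in controls split the arrays into mice 1 to 4 and mice 6 to 8, so mice 1 and 8 fall in different sets. Between sets 0 of the 6 genes differed in limma's test at an adjusted p under 0.05, against 0% of tested genes, and 0 did at an unadjusted p under 0.05, where 309 of 4481 genes did. The difference of Igtp, higher-signal set minus the other, was -0.34 in log2 (95% interval -1.76 to 1.09), which does not show that the sets are alike. The beta-actin 3' to 5' ratio was 1.34 on mouse 1 and 1.69 on mouse 8, within 1.31 to 1.78 for all 7. Those of Gapdh were 0.907 and 0.834, within 0.788 to 0.907. Signals under the floor did follow the pattern, making up 29.7% of probe sets on mouse 1 and 29.2% on mouse 8 against 27.6% to 28.5% on the other 5, and its part in the GTPase pattern was not tested.

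Of 21 T and NK cell markers, 18 were measured, 8 lay below the floor on all arrays, and their summed signal ranged from 731 on mouse 1 to 1087 on mouse 4. That sum was 855 on mouse 8. The 16 measured Kupffer cell and macrophage markers summed to 9531 on mouse 3 and 12257 on mouse 7, with 10632 on mouse 1 and 12143 on mouse 8, and the Kupffer cell lectin Clec4f had 1514 and 1777 on these. Of 12 tested genes of that list, 2, Mpeg1 and C1qa, had mice 1 and 8 as their 2 highest, against 4.24% of other tested genes. Summed endothelial markers ranged from 3870 on mouse 3 to 5852 on mouse 4. The sum of 12 skeletal muscle markers was 12380 on mouse 1, 6922 on mouse 2 and 2616, the lowest, on mouse 8. On mice 3, 4, 6 and 7 that sum was at most 2907. The part of these cell types in the GTPase pattern was not tested.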

How the data were processed

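Per the labels, total RNA of frozen liver was measured on 1-colour Affymetrix U74Av2 arrays. The deposited values are linear intensities, 1 per probe set, already scaled by the authors, since the 2% trimmed mean was 500.4 on every array. No software version or detection call is given in the sources used here. Of 12488 probe sets, 66 were controls, 10833 others had 1 symbol, 396 several and 1193 none. Probe sets with several symbols or none were not named. NCBI gene numbers matched 10817 of the 10833 to the RefSeq table of GRCm38.p6, which changed no symbol. Promoter windows come from RefSeq on that build, and the arrays name none.

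Arrays were scaled to 1 trimmed mean, floored at 0.1 of it (50.04) and log2 was taken. A gene took its brightest probe set. The 4481 genes whose mean reached 200.1, which is 0.4 of the trimmed mean, were tested. Signals in the text are scaled values before the floor. The test of spread was an intercept-only limma 3.58.1 fit in R 4.3.3, in which each variance was set against a robust prior that follows the level (upper-tail F test, Benjamini-Hochberg at 0.05). Array sets were split at the widest gap in 9 bacterial spike-in probe sets and compared with limma. The fits were tested on simulated data, where the test of spread had little power and the comparison of array sets recovered nearly all changed genes. The number of arrays limits the precision.

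Members, the 16 gene lists and the tests were chosen with earlier results of these data known. Named genes are the members, the 10 most and 5 least alike, up to 3 brightest and up to 2 widest per list, with some interferon gamma pathway genes whatever their values. Irf9, Tap2, Psmb8, Psmb10, Gbp2b, Kyat3 and Trim41 were named after their values were seen, as were the genes named only through a count. Alternatives were other scalings, floors, filters, probe set rules, priors and leaving out each array. Tables and plots were made in Python 3.11.15 with scipy 1.17.1, pandas 2.3.3, numpy 2.4.6 and matplotlib 3.10.9.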

Additional observations from a re-analysis of the deposited data

Results flagged for a closer look

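In 87 named genes and member probe sets, Dixon's ratio on log2 signals was used to find 1 array far from the other 6. It found 6 cases, on mice 1, 3 and 4. By chance about 1 such group in 20 would be found, but that rate does not hold for genes named for a wide spread in these data. Atg16l1, Pax5, Elane, Tie1 and Timp1 were named in that way, so the count cannot be read against chance. None of the cases was on a probe set of the 6 GTPases. Ifi27, a type I interferon target, had 3420 on mouse 1 and 1808 to 2270 on the other mice. Atg16l1, of the autophagy conjugation list, had 186 on mouse 4 and 260 to 314 on the others, and the B cell gene Pax5 had 146 on mouse 4 and 237 to 317 on the others. The neutrophil gene Elane had 143 on mouse 1 and 230 to 285 on the others. On mouse 3, the endothelial gene Tie1 had 228, against 331 to 415, and the protease inhibitor Timp1 had 349, against 666 to 997.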

How the results depend on the processing

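The alternatives were other scalings, floors, filters, probe set rules, priors, a term for the array set, and each array left out. Under all that were run, 0 of the 6 genes passed the test of spread after adjustment and 5 or 6 had an unadjusted p under 0.05. With the filter of 0.8 of the trimmed mean Gbp2 was not tested. The lowest adjusted p of Igtp was 0.201 and the highest 0.571. Of the 5 genes other than Igtp, 4 or 5 shared its 2 highest arrays, and the median pairwise r ranged from 0.83 to 0.93. Log2 SDs ranged from 0.73 to 0.94 for Igtp and from 0.33 to 0.46 for Iigp1, and that of Gbp2 from 0.47 without mouse 4 to 0.91. No paired analysis was possible because there is 1 group. With 7 arrays and no detection calls, signals near the floor, such as those of Ifng and Gbp2b, cannot be told from background.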

Other observations

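The probe set annotated to both Tgtp1 and Tgtp2, which therefore names no gene here, had signals of 3040 on mouse 1, 1008 on mouse 2, 346 on mouse 3, 202 on mouse 4, 521 on mouse 6, 485 on mouse 7 and 2839 on mouse 8. Its 15.0-fold range was wider than that of any of the 7 probe sets of the 6 GTPases, and its log2 signals had an r of 0.992 with the mean profile of the 6 GTPases over the 7 mice.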
